A study of Mus musculus with 12 samples.

Results

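The genes that carry hemoglobin through its life cycle were followed in the mouse abdominal aorta: 10 genes, chosen by name from the 55092 features of the expression table. Of these, 5 are erythroid, namely the α-globin genes Hba-a1 and Hba-a2, the β-globin genes Hbb-bs and Hbb-bt, and Alas2. The other 5 take heme apart or handle the iron released from it, namely Hmox1, Blvrb, Slc40a1, Fth1 and Ftl1.

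RNA-Seq covered the abdominal aorta of 12 mice, all male, with 1 library per mouse and 3 mice in each of 4 groups. CCN2fl/fl mice, which carry floxed CCN2 alleles and no Cre, were given saline (CFS) or Ang II (CFA), and CCN2SMCΔ mice, in which Myh11-Cre-ERT2 removes the floxed alleles in smooth muscle, were given saline (CSS) or Ang II (CSA). All 12 mice received tamoxifen in 5 doses from 8 weeks of age and were left for 2 weeks before mini-osmotic pumps delivered saline or 500 ng/kg/min of Ang II for 7 days. Because the Cre is driven by the Myh11 promoter, the deletion is directed at smooth muscle, and Ccn2 was measured here in the whole wall only. The dissected segment holds whatever blood stayed in or entered it, and whether the segments for RNA were rinsed is not given in the sources used here.

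Hemoglobin is a tetramer of α- and β-globin chains, each holding a heme, and its messages are made by erythroid precursors and persist in young red cells. Alas2 is the erythroid form of the first enzyme of heme synthesis. When red cells are broken down, usually by macrophages, heme oxygenase 1 (Hmox1) opens the heme ring to give biliverdin, carbon monoxide and iron, Blvrb encodes a biliverdin and flavin reductase, ferritin heavy and light chains (Fth1 and Ftl1) store the iron, and ferroportin (Slc40a1) exports it. Hmox1 is also induced by oxidative stress, and ferritin is made by nearly all cells.

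Of the 10 genes, 4 share an iron-responsive element, a short hairpin by which iron regulatory proteins control translation or stability of a message. They are shown because they join Alas2 to the iron genes at a level that RNA-Seq does not measure. The search asked for an unpaired C, a stem of 5 base pairs and the loop CAGTGN with a last base other than G, anywhere in the protein-coding transcripts of GENCODE M21, and it matched 222 of 21877 genes (1.02%). In the 4 genes the match lies in the 5′ UTR, in exon 1, at chrX:150547461-150547484 (plus strand) for Alas2, chr1:45925467-45925490 (minus strand) for Slc40a1, chr19:9982735-9982758 (plus strand) for Fth1 and chr7:45459781-45459804 (minus strand) for Ftl1 of GRCm38. The sequences run 5′ to 3′, and the capitals mark the bulged C and the loop.
Alas2: gttCgtcctCAGTGCagggcaaca
Slc40a1: cttCagctaCAGTGTtagctaagt
Fth1: ctgCttcaaCAGTGCttgaacgga
Ftl1: ttgCttcaaCAGTGTttgaacgga
The Fth1 and Ftl1 elements have the same stem, while Alas2 and Slc40a1 have stems of their own. Among the 5 pathway lists described further on, the same search of whole transcripts matched Tfrc, the transferrin receptor, whose known elements are in its 3′ UTR.

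The stretches upstream of erythroid genes are shown because those genes moved together in the data. RefSeq promoters of GRCm38.p6 were matched for 8 of the 10 genes, and the part upstream of any GENCODE M21 exon of the gene is given, at chr11:32296242-32296488 (plus strand, 247 bases) for Hba-a2, chr7:103813997-103814173 (minus strand, 177 bases) for Hbb-bt and chrX:150547167-150547374 (plus strand, 208 bases) for Alas2. Capitals mark GATAA, the core of sites bound by GATA factors, CACCC, the box bound by Krüppel-like factors, and the CCAAT box, each on either strand, and the TATA box letters ATATAA on the gene's own strand. The last capitals of Hbb-bt are the first bases of a further CCAAT box that directly follows a match on the other strand.
Hba-a2: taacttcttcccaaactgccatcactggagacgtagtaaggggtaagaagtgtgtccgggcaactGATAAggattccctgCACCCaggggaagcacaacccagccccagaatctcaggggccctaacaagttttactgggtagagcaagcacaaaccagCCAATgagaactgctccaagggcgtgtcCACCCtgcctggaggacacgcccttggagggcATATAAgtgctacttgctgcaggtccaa
Hbb-bt: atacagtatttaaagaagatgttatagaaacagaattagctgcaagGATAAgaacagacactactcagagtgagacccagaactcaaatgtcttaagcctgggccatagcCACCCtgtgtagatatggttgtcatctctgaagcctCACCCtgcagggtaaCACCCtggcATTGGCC
Alas2: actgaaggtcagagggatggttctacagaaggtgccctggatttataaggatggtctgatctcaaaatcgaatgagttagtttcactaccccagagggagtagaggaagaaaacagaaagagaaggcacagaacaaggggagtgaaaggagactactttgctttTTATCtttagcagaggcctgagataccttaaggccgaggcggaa
GATAA was found once in the 250 bases upstream of each of Hba-a1, Hba-a2, Hbb-bs, Hbb-bt and Alas2, between 86 and 209 bases before the RefSeq start, and once in 1 of the 2 Fth1 promoters, 175 bases before its start. These letters are common, since GATAA is in 22.6%, CACCC in 52.0%, CCAAT in 33.8% and ATATAA in 5.57% of 32817 promoters of that length. ATATAA stood 28 to 31 bases before the start of the 4 globin genes and was not in the Alas2 window. The promoters of Hba-a1 and Hba-a2 were identical over the 247 bases compared. A match is a description of letters and not of binding.

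The gene copies limit what can be read from each globin gene alone. The coding sequences of Hba-a1 and Hba-a2 (chr11:32283511-32284465 and chr11:32296489-32297298, plus strand) differ at 1 of 426 bases, and those of Hbb-bs and Hbb-bt (chr7:103826534-103828096 and chr7:103812524-103813996, minus strand) at 1 of 441. Of all 150-base windows, the read length used, 48.4% of the Hba-a1 transcript are also in Hba-a2 and 58.7% of the Hbb-bs transcript in Hbb-bt. How the authors' counting divided such fragments is not given in the sources used here, so the split between the copies is uncertain and the sums are used beside them.

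The libraries held 14556667 (CSA mouse 3) to 23099998 (CFA mouse 71) recovered fragments. FPKM, the deposited unit, is fragments scaled by the length of the gene and the size of the library, and it allows levels to be compared between genes. Ccn2, the targeted gene, ranged from 255 to 399 FPKM in CSA and from 564 to 1105 in CFA, and from 436 to 640 in CSS and 480 to 1108 in CFS. Ang II groups did not overlap and saline groups did (two-sided exact permutation p = 0.1, the smallest that 3 against 3 allows, and p = 0.4). CSA mouse 3 stood apart from the other CSA mice, at root mean square log2 distances of 1.21 and 1.20 against 0.51 between those, and values of the 10 genes that rest on it are given without it as well.

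The erythroid messages varied widely between mice of the same group. Hbb-bs, the most abundant of them, was at 76.9, 621 and 69.8 FPKM in CFS mice 68, 69 and 70, at 229, 208 and 254 in CSS mice 54, 55 and 56, at 1336, 387 and 474 in CFA mice 71, 72 and 74, and at 44.0, 332 and 28.1 in CSA mice 1, 2 and 3. CFS and CSA each held a single high mouse, CSS was tight, CFA mouse 71 was the highest of all, and all CFA mice were above all CSA mice. Hba-a1 followed the same order, with 59.8, 487 and 52.3 FPKM in CFS, 199.9, 177 and 213 in CSS, 958, 298 and 367 in CFA and 34.8, 229.6 and 25.0 in CSA. Across the 12 mice the highest value was 47.5 times the lowest for Hbb-bs and 38.3 times for Hba-a1.

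The minor copies were lower, and for these too CFA had the highest group mean and CSA the lowest. Hbb-bt was at 5.31, 55.7 and 5.28 FPKM in CFS, 25.3, 21.1 and 23.99 in CSS, 145, 41.4 and 42.1 in CFA and 4.34, 39.1 and 1.86 in CSA. Hba-a2 was at 9.81, 66.8 and 4.95 FPKM in CFS, 10.6, 10.03 and 18.5 in CSS, 29.7, 31.4 and 48.5 in CFA and 4.43, 15.7 and 5.38 in CSA. The lowest of these values rest on few fragments, 20 for Hbb-bt in CSA mouse 3 and 55 to 60 for Hba-a2 in CSA mice 1 and 3 and CFS mouse 70.

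Alas2 (chrX:150547375-150570638, plus strand) was at 1.598, 17.5 and 1.42 FPKM in CFS, 5.69, 4.42 and 5.41 in CSS, 27.5, 8.82 and 11.03 in CFA and 1.02, 4.49 and 2.85 in CSA. CFS mouse 69 and CFA mouse 71 were the high mice for Alas2, as they were for Hbb-bs and Hba-a1. Of its exonic bases, 15.5% also belong to Apex2 or Mir3620, and Apex2 was at 0.56 to 1.22 FPKM in all mice.

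**Figure D1:**
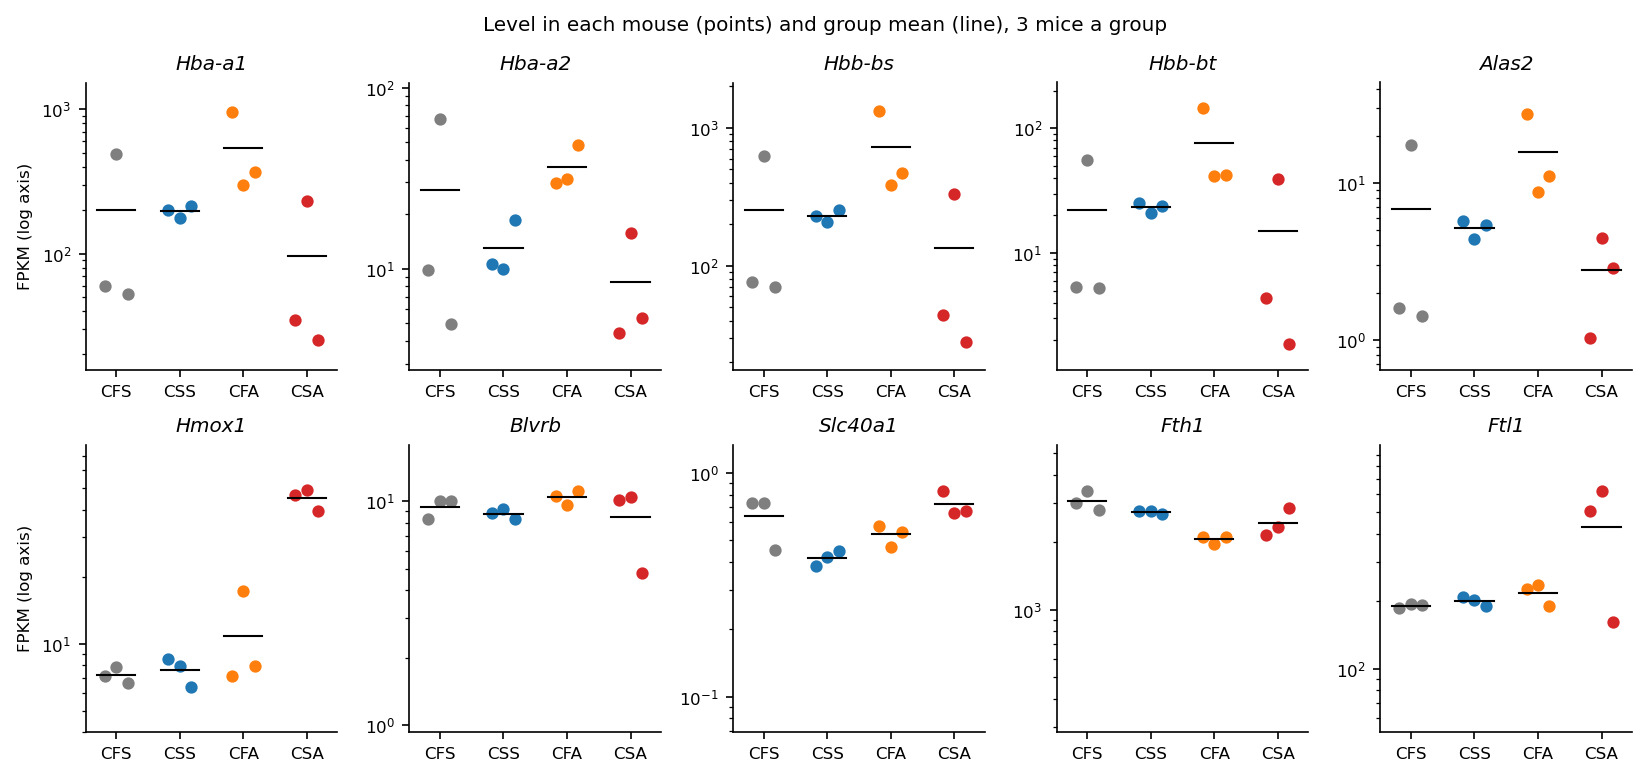
FPKM of the 10 genes on log axes in each of 12 mice (points) with the group mean (line), 3 mice each in CFS, CSS, CFA and CSA. The 5 erythroid genes in the upper row spread widely within CFS and CSA and lie higher in CFA than in CSA, while Hmox1 lies at 39.6 to 48.8 FPKM in CSA and at 17.2 or less in every other mouse.

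The comparison of CSA with CFA sets CCN2SMCΔ against CCN2fl/fl mice under Ang II. The paper reports infrarenal aneurysms in nearly all CCN2SMCΔ mice given Ang II. Few of its control mice had any, and those were mild and lay higher in the aorta. The RNA came from the infrarenal aorta. Which of the sequenced mice had an aneurysm is not given in the sources used here. CSA may therefore differ from CFA in aneurysm as well as in genotype. The part of aneurysm in any comparison that includes CSA was not tested. All 5 erythroid genes were lower in CSA, and all 5 passed the test, which required a Benjamini-Hochberg adjusted p under 0.05 in limma over 14676 genes and an absolute log2 fold change over 1.5. Of all genes tested, 8.27% were called lower and 8.95% higher in this comparison. Of the genes tested, 1206 reached the filter of 1 FPKM in at least 3 libraries only with the CSA mice, 702 of them were called higher, and among the other 13470 the share called higher was 4.54%. None of the 9 tested members depended on the CSA mice in this way. Mean Hbb-bs was 134.6 ± 171 FPKM in CSA and 732 ± 524 in CFA (SD, n = 3 each). Its log2 fold change was -3.07 (SE 0.98, limma adjusted p = 0.0279). The log2 fold change was -3.01 (SE 0.94, limma adjusted p = 0.0253) for Hba-a1, -3.18 (SE 1.11, limma adjusted p = 0.0406) for Hbb-bt and -2.29 (SE 0.80, limma adjusted p = 0.0406) for Hba-a2. Alas2 fell by 2.50 on the log2 scale (SE 0.86, limma adjusted p = 0.0379).

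These 5 calls are not 5 independent results, since the genes vary together (pairwise Pearson r of log2 values from 0.84 to 0.998 over the 12 mice, which share libraries), and single mice decide them. Without CFA mouse 71, without CSA mouse 1 or without CSA mouse 3, 0 of the 5 were called, with adjusted p from 0.0586 to 0.138 in limma. The log2 fold change of Hbb-bs was then -2.52, -2.69 and -2.37. Without CSA mouse 3 it was -2.40 for Hba-a1, -2.26 for Hbb-bt, -2.08 for Hba-a2 and -2.62 for Alas2. Without CFA mouse 74 only Hba-a1 was called, without CFA mouse 72 Hba-a1, Hbb-bs and Alas2 were, and without any of the 3 CSS mice, which enter only the estimate of the spread, Hba-a1 and Hbb-bs were. Without CSA mouse 2, the CSA mouse with the most globin message, all 5 were called, and the log2 fold change of Hbb-bs was -4.15. Processing also decided calls, at unchanged fold changes. Without the filter only Hba-a1 was called (limma adjusted p = 0.0456, and 0.0502 to 0.0704 for the others). A fit of only CSA and CFA lost Hbb-bs and Hbb-bt (limma adjusted p = 0.0531 and 0.0749). The direction was negative in every one of these fits.

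**Figure D2:**
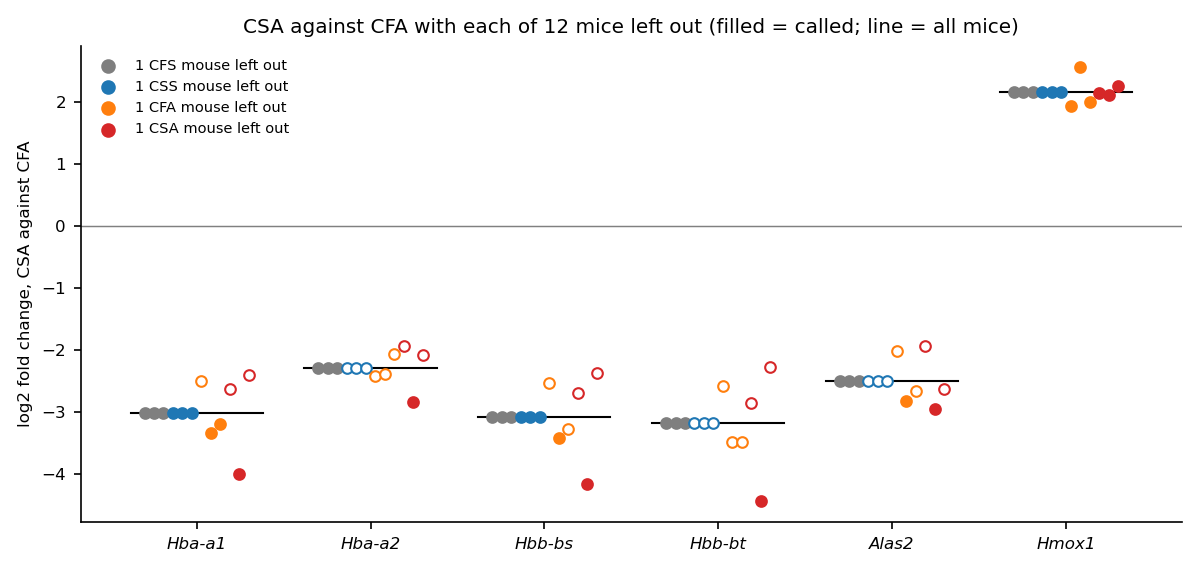
Log2 fold change of CSA against CFA for the 5 erythroid genes and Hmox1 with each of the 12 mice left out, coloured by the group of that mouse. Filled points are called, open points are not, and lines give the value from all mice: the erythroid genes stay below 0 and lose their calls without CFA mouse 71 or CSA mouse 1 or 3, and Hmox1 stays called throughout, at 1.93 to 2.56.

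The other comparisons place this difference. Ang II in CCN2fl/fl mice (CFA against CFS) gave higher means, 2.86 times for Hbb-bs and 2.30 times for Alas2, and without CFS mouse 69 these were 9.99 and 10.4 times. With all mice 0 of the 5 erythroid genes were called, where 0.0273% of all genes were called in either direction. The limma log2 fold changes ran from 1.25 for Hba-a2 to 2.43 for Hbb-bt with adjusted p from 0.51 to 0.71, and Alas2 alone had an unadjusted p under 0.05, at 0.043. Without CFS mouse 69 again 0 of the 5 were called, with limma adjusted p from 0.18 to 0.35 and all 5 at an unadjusted p under 0.05. Ang II in CCN2SMCΔ mice (CSA against CSS) gave log2 fold changes from -1.75 for Hbb-bt to -0.79 for Hba-a2, with 0 of 5 called, 0 at an unadjusted p under 0.05, and limma adjusted p from 0.15 to 0.44, against a background of 9.36% called lower. For Hbb-bs the 95% interval of that change ran from -3.79 to 0.54. Without CSA mouse 2, Hba-a1, Hbb-bs and Hbb-bt were called lower in this comparison (limma adjusted p = 0.0253, 0.0274 and 0.0277).

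In saline-infused mice, where CSS was compared with CFS, 0 of the 9 genes tested were called, with limma adjusted p of 1, and 0.0136% of all genes were. None of the 9 had an unadjusted p under 0.05. Mean Hbb-bs was 230 ± 23.3 FPKM in CSS and 256 ± 316 in CFS (SD, n = 3 each), while the fitted log2 difference was positive, 0.62 (95% interval -1.55 to 2.79). The direction of the means turns on CFS mouse 69, while the fitted difference was positive with and without it. Without that mouse the CSS mean was 3.14 times the CFS mean (log2 fold change 1.65, limma adjusted p = 0.97).

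The interaction, that is the effect of Ang II in CCN2SMCΔ mice minus its effect in CCN2fl/fl mice, was negative for each erythroid gene, from -4.18 for Hbb-bt to -2.04 for Hba-a2 on the log2 scale. None of the 5 passed (limma adjusted p from 0.0589 for Hba-a1 to 0.215 for Hba-a2), while 7.31% of all genes were called negative, and 4 of the 5 had an unadjusted p under 0.05. Leaving out CFS mouse 69 brought all 5 past the test, with limma adjusted p from 0.0039 to 0.0198, and leaving out CSA mouse 2 brought Hba-a1, Hbb-bs and Hbb-bt past it. CFS mouse 69 had the highest globin of the saline mice, and its 7 endothelial markers summed to 96.0 FPKM against 418 and 415 in the other CFS mice. The part of this in the result was not tested.

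**Figure D3:**
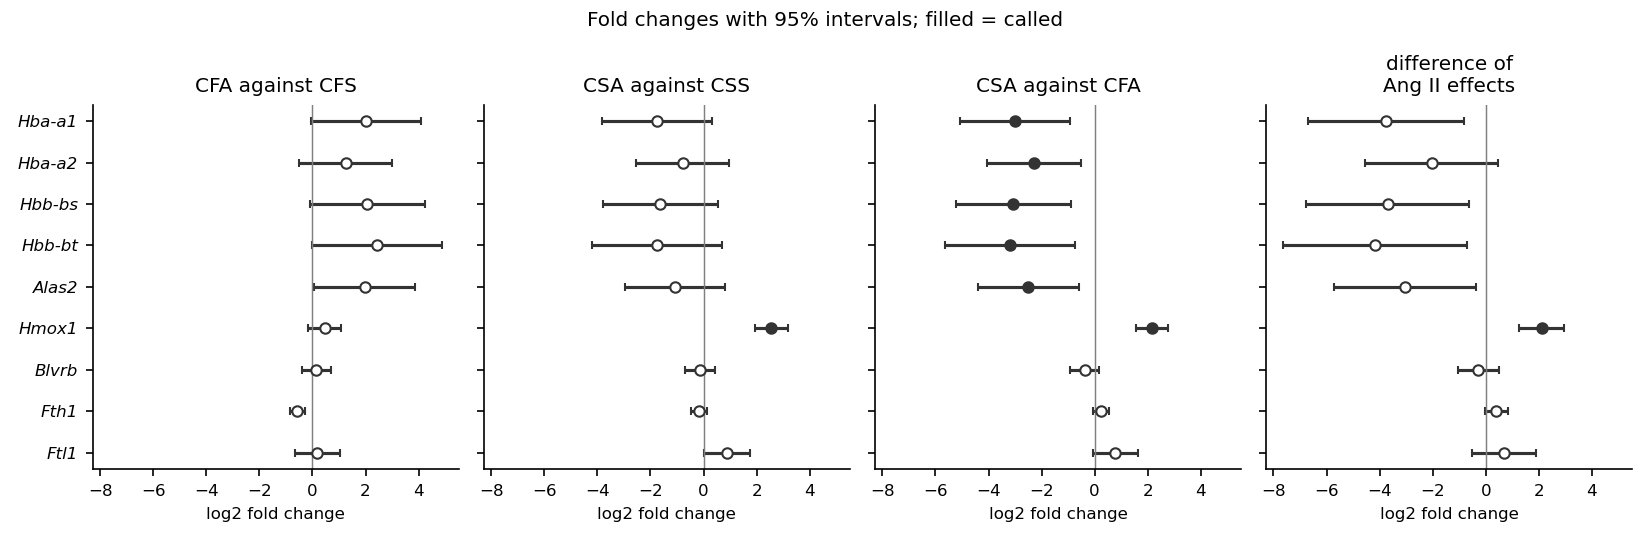
Limma log2 fold changes with 95% intervals for the 9 tested genes in CFA against CFS, CSA against CSS, CSA against CFA and the interaction. Filled points are called: the 5 erythroid genes in CSA against CFA, and Hmox1 in each panel but the first.

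The proportions among the erythroid messages were steadier than their amounts. The 4 globin genes summed to between 60.4 FPKM in CSA mouse 3 and 2469 FPKM in CFA mouse 71, a 40.9-fold range, yet the ratio of summed α- to summed β-globin stayed between 0.66 and 1.01 (0.80 ± 0.09, SD over 12 mice). Its extremes were both in CSA, 0.66 in mouse 2 and 1.01 in mouse 3, and the 3 CSS mice spanned only 0.816 to 0.832. Hbb-bt made up 6.19% to 10.5% of β-globin, and Hba-a2 made up 3.003% to 17.7% of α-globin, within the doubt about how copies were counted.

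Alas2 kept a similar proportion to globin in 11 of the 12 mice. As a percentage of the globin sum in FPKM, it stood at 1.05%, 1.42% and 1.08% in CFS, at 1.22%, 1.06% and 1.06% in CSS and at 1.11%, 1.16% and 1.18% in CFA. In CSA it stood at 1.17% and 0.73% in mice 1 and 2 and at 4.72% in mouse 3, where Alas2 rests on 105 fragments. Mouse 3 therefore had the least globin of all mice without having the least Alas2.

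**Figure D4:**
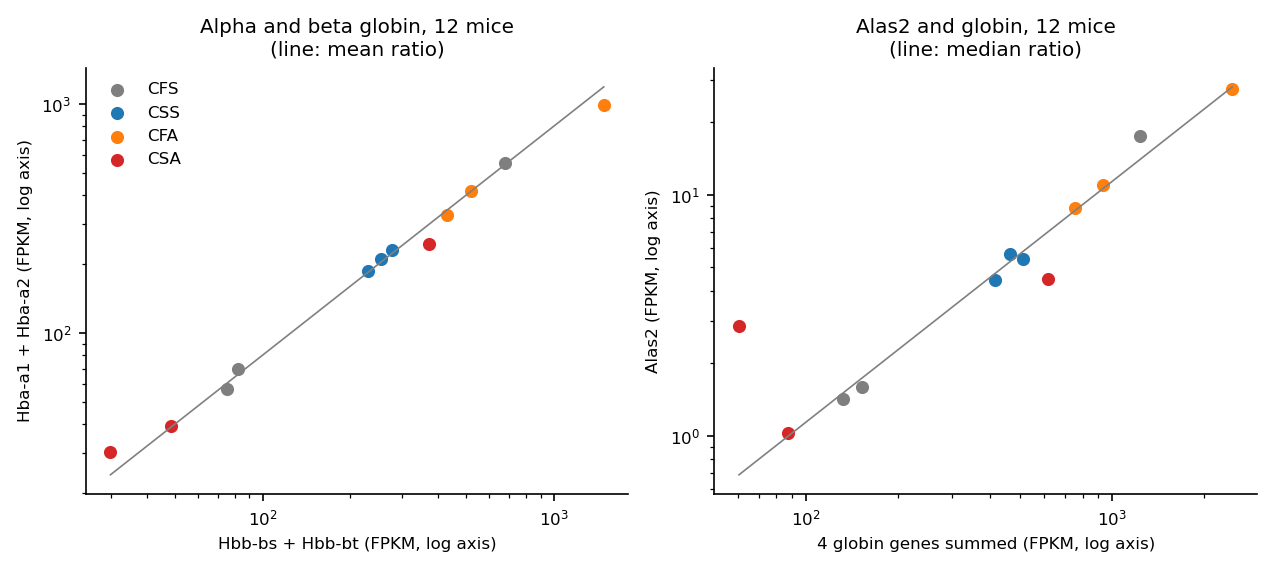
Summed α-globin against summed β-globin FPKM (left) and Alas2 against the sum of the 4 globin genes (right), on log axes, for 12 mice coloured by group. The points follow the lines of constant ratio except CSA mouse 3, whose Alas2 is 4.72% of its globin sum against 0.73% to 1.42% elsewhere.

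Most other erythroid genes listed were below the level needed to be tested, although Hbb-bs reached 1336 FPKM. Slc4a1, the band 3 anion exchanger, reached at most 0.34 FPKM, and Klf1, an erythroid transcription factor, at most 0.30. The embryonic globins Hba-x and Hbb-bh1 were listed at 0 in every mouse, which allows up to 3 fragments in each. Of 28 other erythroid genes listed, 27 were matched in the table and 7 were tested.

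Of those 7, Car2, Tfr2 and Nfe2 reached the filter through the CSA mice alone, so they had to be higher there and their calls are not counted. Epor, the erythropoietin receptor, needed 1 CSA mouse to reach it and was not called (log2 fold change -0.93, limma adjusted p = 0.26). Car2, carbonic anhydrase 2, was at 1.73 to 3.34 FPKM in CSA and at most 0.53 elsewhere, Tfr2, transferrin receptor 2, at 1.47 to 2.18 and at most 0.44, and Nfe2, a transcription factor of erythroid and megakaryocyte cells, at 1.91 to 2.45 and at most 0.58. Of the other 3, 0 were called by limma between CSA and CFA and 1 had an unadjusted p under 0.05. That gene, Bpgm, which makes the red cell regulator 2,3-bisphosphoglycerate, had a log2 fold change of -1.21 and a limma adjusted p of 0.0020, under the fold limit.

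Platelet transcripts, which also come with blood, were looked at beside globin. The summed level of 9 platelet and megakaryocyte markers was 24.5, 45.7 and 26.2 FPKM in CFS, 50.9, 37.8 and 37.0 in CFA and 32.6, 55.5 and 24.2 in CSA, and 32.9 to 35.8 in CSS. Most of each sum was a single gene, Pf4, at 21.6 to 34.4 FPKM in CFA and 18.6 to 47.4 in CSA, highest in CSA mouse 2. Mean Pf4 was 31.7 FPKM in CSA and 27.7 in CFA, while the other tested markers had lower means in CSA. In CSA and CFA those means were 2.90 and 6.56 FPKM for Ppbp and 1.45 and 2.10 for Itga2b. For Gp9 they were 0.25 and 3.03, and for Gp1ba 0.57 and 1.48. CFA mouse 72 had the most Pf4 of its group and the least Ppbp and Gp9. The sums therefore describe mainly Pf4. Within CFS, CFA and CSA, the mouse with the most globin was also the mouse with the highest platelet sum, and in CSS it was not, with the most globin in mouse 56 and the highest platelet sum in mouse 55. Of the 5 tested platelet markers, 0 were called between CSA and CFA by limma, and 2 had an unadjusted p under 0.05, both with lower values in CSA. They were Gp1ba (log2 fold change -1.26, limma adjusted p = 0.0125) and Gp9 (-2.75, limma adjusted p = 0.10), which encode parts of the platelet receptor for von Willebrand factor. The part of blood content in the globin differences was not tested.

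Hmox1 (chr8:75093621-75100589, plus strand) was the only clearance gene called, and it was called higher. It was at 7.17, 7.88 and 6.66 FPKM in CFS, 8.51, 7.89 and 6.38 in CSS, 7.18, 17.2 and 7.89 in CFA and 46.6, 48.8 and 39.6 in CSA. The CSA mice were above every other mouse, and CFA mouse 72 was the highest of the rest. Mean Hmox1 was 45.0 ± 4.78 FPKM in CSA and 10.8 ± 5.60 in CFA (SD, n = 3 each), and the log2 fold change was 2.16 (SE 0.28, limma adjusted p = 0.00012). Against CSS the log2 fold change was 2.56 (limma adjusted p = 2.6e-05), in a comparison where 10.9% of all genes were called higher. The interaction was 2.10 (SE 0.39, limma adjusted p = 0.0027), where 7.89% were called positive. These 3 calls held in every alternative run, and without CSA mouse 3 the change against CFA was 2.25.

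Most markers of macrophages, the cells that clear red cells, moved with Hmox1. The summed level of 16 macrophage markers was 2511 to 2843 FPKM in CSA, 397 to 825 in CFA, 350 to 423 in CSS and 337 to 395 in CFS, with none of them at 0 in CSA, and of 15 tested, 10 were called higher in CSA than in CFA, of which Itgam was tested only through the CSA mice, and 0 lower. The other 5 tested went both ways, with log2 fold changes of -0.87 for Lyve1 (limma adjusted p = 0.0367), -0.73 for Mertk (limma adjusted p = 0.0185), -0.43 for Timd4, -0.01 for Folr2 and 0.91 for Mrc1 (limma adjusted p = 0.0337). Without CSA mouse 3 they were, in the same order, -1.24, -0.94, -0.89, -0.04 and 0.57, with a limma adjusted p of 0.084 for Mrc1. CFA mouse 72, with the highest Hmox1 outside CSA, also had the highest macrophage sum outside CSA. Hmox1 changed less than 8 of the 15 tested macrophage markers and more than 7. Relative to Cd68, a lysosomal protein of macrophages, Hmox1 was lower in CSA, with FPKM ratios of 0.42, 0.49 and 0.39 against 0.71, 0.72 and 0.97 in CFA and 0.84 to 0.94 in the saline groups. The ratio to Adgre1, which encodes the macrophage marker F4/80, was 0.55 to 0.74 in CSA and 0.91 to 1.43 elsewhere. The ratio to Csf1r, a macrophage growth factor receptor, did not go that way, at 0.38 to 0.44 in CSA and 0.28 to 0.41 in CFA, so the direction depends on the marker. In bulk tissue more cells of a type and more RNA per cell cannot be told apart, and the part of the macrophage markers in the Hmox1 result was not tested.

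Other wall markers shifted in the same comparison. All 9 smooth muscle markers were called lower in CSA than in CFA, with sums of 804 to 963 FPKM against 5605 to 8498, and neutrophil markers were higher, with sums of 525 to 572 against 11.1 to 28.1. Of the 8 neutrophil markers tested, 5 reached the filter only through the CSA mice, and the other 3 were called higher. Of 7 endothelial markers, Nos3, Vwf, Tek and Pecam1 were called lower (Nos3 not without CSA mouse 3), with sums of 111 to 148 FPKM in CSA and 201 to 456 in CFA. Cdh5 and Egfl7 were not called (log2 fold changes -0.36 and -0.31), nor was Kdr (0.92, limma adjusted p = 0.081). The Kdr values were higher in CSA without overlap, but by only 5.37 against 5.36 FPKM between the nearest mice. Of 6 fibroblast markers 0 were called, with sums of 3559 to 4248 FPKM in CSA and 2204 to 2428 in CFA. These went both ways, with log2 fold changes of 1.44 for Lum, 0.96 for Col1a1, -1.13 for Dpt and -1.17 for Pi16. Smooth muscle markers summed to 7784 to 10406 FPKM in the saline groups, so markers of the labelled tissue were present in all groups. Hmox2, the constitutive heme oxygenase, was at 22.5 ± 3.996 FPKM in CSA and 12.98 ± 1.20 in CFA (SD, n = 3 each). Its log2 fold change of 0.78 (limma adjusted p = 0.0010) is under the fold limit. The ratio of Hmox1 to Hmox2 was 2.33, 2.38 and 1.46 in CSA and 0.50 to 1.27 in all other mice.

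**Figure D5:**
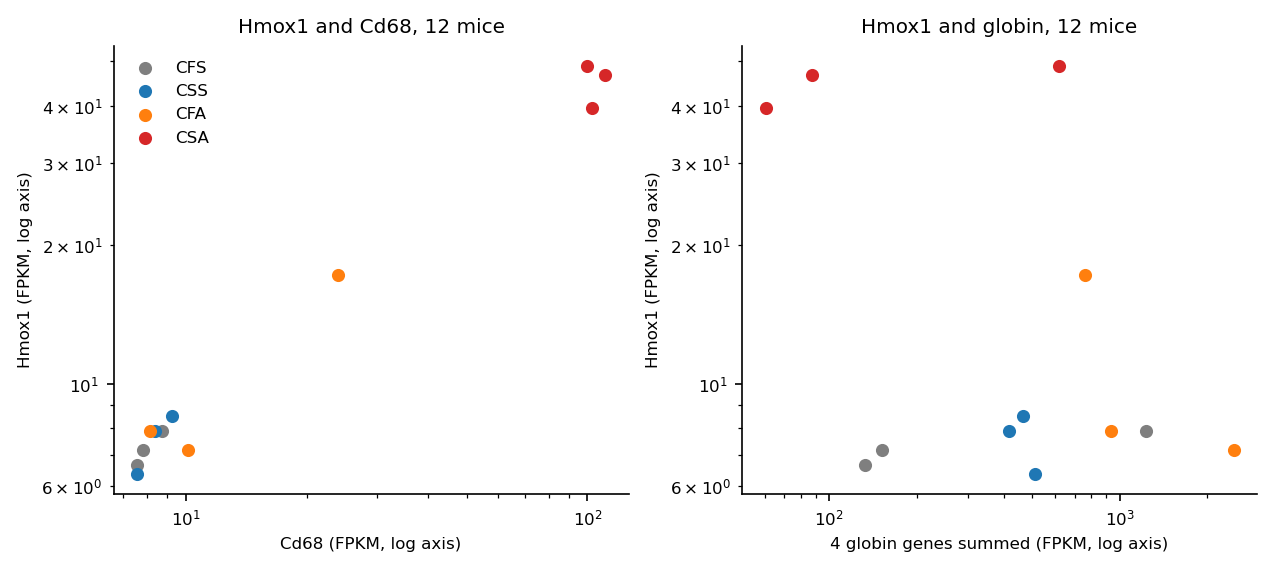
Hmox1 FPKM against Cd68 (left) and against the sum of the 4 globin genes (right), on log axes, for 12 mice coloured by group. Hmox1 is high where Cd68 is high, in CSA and next in CFA mouse 72, and it shows no such order with globin, since the 3 CSA mice span 60.4 to 616 FPKM of globin at 39.6 to 48.8 FPKM of Hmox1.

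Of the remaining clearance genes, Blvrb, Ftl1 and Fth1 were not called in any of the 5 comparisons, and Slc40a1 was below the level needed to be tested. Blvrb (chr7:27447978-27466144, plus strand) was at 8.32, 10.03 and 10.004 FPKM in CFS, 8.82, 9.23 and 8.29 in CSS, 10.6, 9.57 and 11.1 in CFA and 10.1, 10.5 and 4.79 in CSA. CSA mouse 3 had the lowest value, apart from the other 11 mice. The log2 fold change of CSA against CFA was -0.38 (95% interval -0.93 to 0.17, limma adjusted p = 0.25), and it was -0.01 without CSA mouse 3.

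The ferritin chains were abundant and were not called. Ftl1 (chr7:45457944-45459884, minus strand), the light chain, was at 186, 194 and 192 FPKM in CFS, 209, 202 and 191 in CSS, 226, 237 and 191 in CFA and 506, 623 and 162 in CSA. CSA mice 1 and 2 had the highest values of all and CSA mouse 3 the lowest. With all mice the log2 fold change of CSA against CFA was 0.77 (SE 0.39, limma adjusted p = 0.14), and without CSA mouse 3 it was 1.37 (limma adjusted p = 1.27e-05), still under the fold limit. Of the exonic bases of Ftl1, 34.6% are shared with Gm10252 or Gm22133, and Ftl1-ps1, a near copy, was at 9.30, 11.02 and 5.66 FPKM in CSA and 2.62 to 5.28 elsewhere.

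Fth1 (chr19:9980598-9985098, plus strand), the heavy chain and the most abundant of the 10 genes, was at 2992, 3401 and 2793 FPKM in CFS, 2767, 2760 and 2673 in CSS, 2118, 1966 and 2117 in CFA and 2149, 2344 and 2860 in CSA. CFA was below every other group without overlap, though CSA was near, at 2149 against 2118 FPKM between the nearest mice. The log2 fold change of CFA against CFS was -0.56 (95% interval -0.86 to -0.26), with an unadjusted p of 0.0017 and a limma adjusted p of 0.17, and that of CSA against CFA was 0.24 (limma adjusted p = 0.19), or 0.12 without CSA mouse 3 (limma adjusted p = 0.39). The ratio of Fth1 to Ftl1 was 14.5 to 17.6 in CFS, 13.2 to 13.999 in CSS and 8.28 to 11.1 in CFA. In CSA it was 4.25 and 3.76 in mice 1 and 2 and 17.7 in mouse 3.

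Slc40a1 (chr1:45908068-45926523, minus strand), the iron exporter, was scarce, at 0.73, 0.73 and 0.45 FPKM in CFS, 0.38, 0.42 and 0.45 in CSS, 0.58, 0.47 and 0.55 in CFA and 0.83, 0.66 and 0.67 in CSA. It was the only gene of the 10 under the filter of 1 FPKM in at least 3 libraries, and 64 to 152 fragments lay behind each value. CSA was above CFA and above CSS without overlap, and CSS lay below CFS, there by only 0.449 against 0.451 FPKM between the nearest mice, on 88 and 70 fragments, within counting error. Each of these differences gave a two-sided exact permutation p of 0.1, the smallest possible with 3 mice a group. In the fit without a filter, limma gave an adjusted p of 0.35 for CSA against CFA (log2 fold change 0.38) and 0.088 for CSA against CSS (0.66).

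Setting the erythroid genes against the clearance genes in each mouse gave a compact view of both. The mean log2(FPKM + 0.1) of the 5 erythroid genes minus that of the 5 clearance genes was -1.22, 1.76 and -1.41 in CFS, 0.35, 0.14 and 0.63 in CSS, 2.51, 0.99 and 1.48 in CFA and -2.75, -0.28 and -2.32 in CSA. All CFA values were above all CSA values, and CFS was the most spread. Most of the spread came from the erythroid mean, which ran from 2.89 to 7.43, while the clearance mean ran from 4.77 to 5.82 with its 3 highest values in CSA. That mean includes Hmox1, the only clearance gene called. CSA mouse 3 had the lowest Blvrb and Ftl1 of all mice, at 4.79 and 162 FPKM, so not all clearance genes were high there. Between an erythroid and a clearance gene, Pearson r of log2 values over the 12 mice lay between -0.44 (Hba-a1 and Hmox1) and 0.64 (Hbb-bt and Blvrb), with a median of -0.19. Group differences and shared libraries are part of these values.

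The wider pathways were described by lists of genes. Of 12 heme synthesis genes, all tested, 0 were called between CSA and CFA by limma, 4 had an unadjusted p under 0.05, and the median log2 fold change was -0.09 beside -0.04 over all genes tested. The largest differences were in Slc25a37, which carries iron into mitochondria, at 13.7 ± 2.38 FPKM in CSA and 6.39 ± 0.19 in CFA (SD, n = 3 each, log2 fold change 1.08, limma adjusted p = 0.00016), in Alas1, the enzyme of non-erythroid cells that corresponds to Alas2 (0.61, limma adjusted p = 0.012), and in Alad (-0.54, limma adjusted p = 0.14, and -0.15 without CSA mouse 3). So Alas1 and Alas2 had log2 fold changes of opposite sign in this comparison.

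Of 15 genes for uptake, transport and breakdown of hemoglobin and heme, 12 were tested, 1 was called higher in CSA than in CFA and 0 lower, a share of 8.33% beside 8.95% of all genes called higher and 4.54% of those that did not need the CSA mice to pass the filter. The called gene was Hp, haptoglobin, which binds free hemoglobin, at 341 ± 48.3 FPKM in CSA and 56.5 ± 48.7 in CFA (SD, n = 3 each, log2 fold change 2.95, limma adjusted p = 0.010). Hp was also uneven in the controls, at 158 FPKM in CFS mouse 70 and 30.3 and 40.5 in the others. The 5 adipocyte markers summed to 425 FPKM in that mouse against 107 and 115 in the other CFS mice, to 49.3 to 146 in CFA and to 11.7 to 50.9 in CSA, and their part in the Hp and Me1 results was not tested. Neutrophil markers, which were higher in CSA as Hp was, summed to 525 to 572 FPKM there and 11.1 to 28.1 in CFA. Their part in the Hp result was not tested either. Bach1, a heme-binding repressor of Hmox1, had a log2 fold change of 1.42 (limma adjusted p = 2.1e-05), and Mafk, a small Maf protein that pairs with it, of -1.37 (limma adjusted p = 0.00027), both under the fold limit. Slc48a1, which moves heme out of the phagolysosome, was at 26.9 ± 7.02 FPKM in CSA and 63.6 ± 5.92 in CFA (SD, n = 3 each, log2 fold change -1.27, limma adjusted p = 0.00029), and was chosen after its values were seen.

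Of 25 genes of iron uptake, storage and export, 21 were tested, and of the 20 that did not need the CSA mice to pass the filter 2 were called higher in CSA than in CFA and 0 lower, that is 2 of 20 beside 4.54% of all genes passing in that way. The 2 were Lcn2, which binds bacterial iron carriers (5.03, limma adjusted p = 1.5e-05), and Slc11a1, the metal transporter of phagosomes (2.31, limma adjusted p = 1.2e-05). Ltf, the iron-binding protein of neutrophil granules, passed only through the CSA mice, at 1.43 to 2.44 FPKM there and at most 0.14 elsewhere. All 3 are known in neutrophils or macrophages, whose markers were higher in the same mice, and the part of those cells was not tested. Lcn2 was at 33.5 to 57.6 FPKM in CSA and at 3.13 or less in all other mice.

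Of 14 targets of NRF2, a stress-activated factor that also acts on Hmox1, 13 passed the filter without the CSA mice, and of these 1 was called higher and 2 lower in CSA than in CFA, or 7.69% called higher beside 4.54% of all genes passing in that way. The lower calls, 2 of 13, stand beside 1214 called lower among the 13470 genes passing in that way. Osgin1 rose (log2 fold change 1.64, limma adjusted p = 0.0067). Slc7a11, the cystine importer, passed only through the CSA mice, at 1.07 to 1.32 FPKM there and at most 0.25 elsewhere. Nqo1, a quinone reductase, fell by 2.01 on the log2 scale (limma adjusted p = 8.8e-06) and Me1, malic enzyme, changed by -2.24 (limma adjusted p = 9.7e-05). Nqo1 was at 1.55 to 2.51 FPKM in CSA and at 6.92 to 10.8 in the other 9 mice. Hmox1 and Nqo1, both textbook NRF2 targets, thus changed in opposite directions, and the interaction was 2.10 for Hmox1 and -2.20 for Nqo1 (limma adjusted p = 0.0027 and 0.00016).

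The genes outside the 10 whose log2 values were most like those of 4 of them over the 12 mice were ranked by Pearson r, as a description in which group differences and shared libraries count. Closest to Hbb-bs were Fgf16 (r = 0.90), Zscan30 (0.89), Alox12 (0.88), Lnx1 (0.87) and Mthfd2l (0.86). Among those closest to Alas2 were Ccdc92 (0.89), Alox12 (0.86) and Zfp811 (0.84). Alox12, the platelet lipoxygenase, was on both lists. The r of Hbb-bs with Hba-a1, by comparison, was 0.998, and with Hbb-bt 0.994, so no tested gene outside the 10 followed Hbb-bs as closely as these did.

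Hmox1 had closer followers, all with r of 0.99 or more: Slc43a2, Ms4a6c, Ncf1, Cd68 and Ankrd66. Ankrd66 was tested only through the CSA mice, at 1.32 to 1.48 FPKM there and at most 0.22 elsewhere, so its likeness was favoured by the filter. Ncf1 encodes a subunit of the phagocyte NADPH oxidase, and Cd68 belongs to the macrophage markers above. Ms4a6c was at 44.2 to 58.8 FPKM in CSA, at 6.73 in CFA mouse 72 and at 2.37 or less in the other mice, the same order as Hmox1 at the top. Closest to Slc40a1 were Thbs4 (r = 0.92, with 2 CSA mice needed to pass the filter), Anpep (0.87), an unannotated feature without a gene identifier (0.87), Snrnp25 (0.86) and Zmynd8 (0.85).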

How the data were processed

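RNA-Seq of 12 abdominal aortas, 3 mice in each of 4 groups taken from the labels, was analysed. The authors deposited FPKM, 1 value per gene and mouse, made from poly(A) libraries read in pairs of 150 bases. HISAT2 2.0.5, StringTie 1.3.3b, featureCounts 1.5.0-p3 and mm10 are listed in the submitters' processing notes, and the strand setting and the treatment of reads that fit several genes are not given in the sources used here. With exon lengths of GENCODE M21 (GRCm38), 98.1% to 98.5% of values under 100 fragments came out whole within 0.05, and the recovered fragments give the depth. These and the limits at 0 cover counting error only. The deposited values carry a scaling between libraries that is not described.

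Log2(FPKM + 0.1) was fitted in R 4.3.3 with limma 3.58.1 (eBayes, trend and robust both on), all 12 libraries in the fit, a mean for each group and no covariate, for 14676 genes at 1 FPKM or more in at least 3 libraries, 256 of them without an Ensembl identifier. Fold changes are on that scale and understate those of low genes. Benjamini-Hochberg adjustment ran over all tested genes of a comparison. A call needed an adjusted p below 0.05 together with a log2 fold change beyond 1.5 in either direction. On simulated data for CSA against CFA, 190 of 197 tested genes changed 8-fold were called (96.4%), with 4 unchanged genes called among 13939 tested. Each gene was drawn independently there and no library stood apart. The share therefore does not describe the globin genes, which vary together and more widely than most. Tables, sequence searches and figures used Python 3.11.15, numpy 2.4.6, pandas 2.3.3, scipy 1.17.1 and matplotlib 3.10.9.

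The text names the 10 genes, Ccn2, the 3 genes of each pathway list with the largest difference between CSA and CFA, and the 5 genes most like Hbb-bs, Alas2, Hmox1 and Slc40a1, of which some are not reported here. Genes named beyond these were chosen after their values were seen. The 10 genes, the lists and the tests were chosen with earlier results of these data known. Alternatives were other pseudocounts, filters, scalings and eBayes settings, a fit of only the groups compared, an adjusted p without a fold limit, and leaving out each mouse. Of the scalings, that by the median over genes of the ratio to a mean library gave the same factor, 1.014, for all 12 libraries. That alternative could therefore hardly change a result. Promoters and the build GRCm38.p6 are RefSeq's.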

Additional observations from a re-analysis of the deposited data

Results flagged for a closer look

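The effect of Ang II on Hmox1 differed between genotypes by a test of the difference itself, with an interaction of 2.10 on the log2 scale (limma adjusted p = 0.0027), and all 3 CSA mice lay above the other 9. For Slc40a1 and Fth1 the genotypes differed in opposite directions under the 2 treatments, without overlap of the groups. CSA lay above CFA by 0.38 for Slc40a1 and by 0.24 for Fth1 (0.12 without CSA mouse 3) on the log2 scale. CSS lay below CFS in both. For Slc40a1 that gap was within counting error (0.449 against 0.451 FPKM between the nearest mice). The Fth1 gaps were narrow as well, at 2767 against 2793 FPKM between the nearest CSS and CFS mice. Between the nearest CSA and CFA mice they were 2149 against 2118 FPKM. How many of all genes separate in this way was not counted. For these 2 genes no call was made in any comparison, so the opposite directions are descriptions; the interaction was 0.40 for Fth1 (limma adjusted p = 0.16) and, in the fit without a filter, 0.87 for Slc40a1 (limma adjusted p = 0.18).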

How the results depend on the processing

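Of the 10 genes, 6 were called between CSA and CFA, and without the filter on low values the count was 2 (Hba-a1 and Hmox1), with more genes tested. Leaving out each mouse gave 1 to 6 in that comparison, 1 to 4 in CSA against CSS (1 with all mice), 1 to 6 for the interaction (1 with all mice) and 0 in CFA against CFS and in CSS against CFS. The other settings kept each count within 1.5 times, and the fit of only CSA and CFA called 4. No fold change of CSA against CFA among the 9 tested genes changed sign under any alternative, and Hmox1 was called in all of them, at 1.93 to 2.56. Scaling each library to an equal sum, with or without the globin genes, moved the median over all genes by under 0.1. No paired analysis was possible because the groups share no replicate numbers. With 3 mice a group, globin differences of several fold lie within the intervals, and Slc40a1 was measured below 1 FPKM.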
